A study of Saccharomyces cerevisiae with 18 samples.

Results

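Intron and gene reads of budding yeast (Saccharomyces cerevisiae) were compared between 8 h and 4 h of growth in glucose, in a strain where glucose shuts off the promoter of the spliceosome gene SNU114. The comparison took 6 of the series' 18 libraries, the 3 labelled 8 h and the 3 labelled 4 h, and described them across 6596 gene features and 284 intron-containing host genes. Both groups were the same strain, labelled as a BY4742 background, mating type alpha, with his3Δ1, leu2Δ0, met15Δ0, lys2Δ0 and ura3Δ0 and with PGAL1 in front of YKL173w (SNU114). Both were grown in YPD, a rich glucose medium, so the sugar was the same on both sides and time in glucose was the only labelled difference. A further group of 3 libraries from the strain after 6 h in YPGal, the galactose medium that keeps the promoter on, entered the fits only to share the estimate of spread. Because all glucose cultures also aged by 4 h between the groups, depletion and time in culture cannot be told apart here. The labels do not say that the 3 replicates were separate cultures, and column headers of the deposited tables speak of averages of technical repeats, so the p-values may measure technical spread alone.

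Snu114 belongs to the U5 snRNP, a core particle of the spliceosome, as its GTPase, and sits there beside Prp8 and the helicase Brr2. The U5 snRNP enters the spliceosome with U4 and U6 as the tri-snRNP, and unwinding of U4 from U6 by Brr2 opens the way to catalysis. In budding yeast few genes carry an intron, but those of the ribosomal proteins are among them and are transcribed so strongly that they supply most of the spliceosome's work. An intron is recognised through its 5′ splice site, its branch site and its 3′ splice site, which in yeast keep close to GTATGT at the start, to TACTAAC at the branch and to an AG at the very end.

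Introns at both ends of the range are shown with their sequences from the RefSeq R64 genome. The 5′ ends of 4 introns whose reads rose steeply and 4 whose ratio to gene reads did not pass the test follow, on the transcribed strand, with 6 bases of exon and then the first 6 bases of the intron in capitals. They lie at chrXI:283090-283111 (+) for TEF4, chrVIII:505501-505522 (−) for RPS4B, chrIV:458082-458103 (−) for MAF1, chrVI:54671-54692 (−) for ACT1, chrII:407107-407128 (−) for UBC4, chrXVI:412256-412277 (+) for GCR1, chrVII:439088-439109 (+) for RPL30 and chrVI:75834-75855 (+) for HAC1.
TEF4: tttattGTATGTtccatatttt
RPS4B: aggaccGTATGTtgatttccac
MAF1: atgaaaGTATGTtatcactcta
ACT1: attctgGTATGTtctagcgctt
UBC4: agaaagGTATGTctaaagttat
GCR1: ggtatgGTATGAtcataacacg
RPL30: gagatgGTCAGTataacatgat
HAC1: atccagCCGTGAttacgatgac

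The 3′ ends of the same introns follow, with the last TACTAAC before the end, where there is one, and the last 3 intron bases in capitals, and then 3 bases of exon. They lie at chrXI:283361-283424 (+) for TEF4, chrVIII:505245-505300 (−) for RPS4B, chrIV:458015-458061 (−) for MAF1, chrVI:54375-54432 (−) for ACT1, chrII:407025-407064 (−) for UBC4, chrXVI:412950-413015 (+) for GCR1, chrVII:439272-439326 (+) for RPL30 and chrVI:76042-76094 (+) for HAC1.
TEF4: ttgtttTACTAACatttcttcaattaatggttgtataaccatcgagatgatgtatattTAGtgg
RPS4B: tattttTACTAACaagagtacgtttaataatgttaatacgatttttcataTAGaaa
MAF1: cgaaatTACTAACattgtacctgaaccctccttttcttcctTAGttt
ACT1: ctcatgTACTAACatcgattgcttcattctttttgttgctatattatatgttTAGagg
UBC4: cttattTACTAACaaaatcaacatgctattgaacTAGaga
GCR1: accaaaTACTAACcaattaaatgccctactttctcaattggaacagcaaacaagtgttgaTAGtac
RPL30: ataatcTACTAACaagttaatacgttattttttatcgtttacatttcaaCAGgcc
HAC1: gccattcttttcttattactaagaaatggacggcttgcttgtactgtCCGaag

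The annotated intron of HAC1 had none of the 3 usual signals, and as background it is cut out by the Ire1 nuclease and joined by tRNA ligase, not by the spliceosome. RPL30 has an unusual 5′ splice site, and as background its protein binds its own transcript there and holds back splicing. Of the 255 annotated introns in 246 hosts tested and found in R64, 76.1% began with GTATGT and 83.1% held TACTAAC on the transcribed strand, the only strand searched. UBC4, whose ratio did not pass the test, carried both motifs.

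The 6 libraries held 17.4 to 25.4 M gene reads (M, megareads) and 104306 to 298402 intron reads. Replicate 3 at 8 h stood apart, with a root mean square log2 distance of 0.53 to its group mates against 0.25 to 0.39 in the other 5 libraries. Values without it are given beside several of the results it moves. The SNU114 mRNA was switched off in both groups: its normalised count (reads divided by a size factor per library) was 159505 to 186566 in galactose, 1210.0, 1247 and 1130.5 at 4 h, and 1180.4, 1252 and 1501 at 8 h. The 4 h and 8 h values overlapped, and the change was 0.13 ± 0.13 (log2 ± standard error, n = 3 per group, adjusted p = 0.722, limma). The mRNA had therefore reached its low level by 4 h, and Snu114 protein was not measured. LEU2, URA3 and MET17 (the gene of met15Δ0) were at 0 in all 6 libraries, LYS2 was at 0 to 1.07 and HIS3, whose his3Δ1 allele is a partial deletion, was at 1434 to 2788. All 4 alpha-specific genes listed, MF(ALPHA)1, MF(ALPHA)2, SAG1 and STE3, were at 3110 or above. Of the 6 a-specific genes MFA1, MFA2 and AGA2 were at 34.3 or below, BAR1 and STE2 at 106 to 167, and STE6 at 507 to 650.1.

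Intron reads accumulated between 4 h and 8 h. All intron reads together amounted to 0.510%, 0.554% and 0.541% of gene reads in the 3 libraries at 4 h and 1.36%, 1.45% and 1.65% at 8 h. The lowest 8 h library stood far above the highest 4 h library. The mean rose from 0.535% ± 0.0225 to 1.49% ± 0.149 (SD, n = 3 each), a 2.78-fold increase. Its exact two-sided permutation p was 0.1, the smallest that 3 libraries against 3 can give. At 4 h the share was still at the level of the galactose libraries, which held 0.586%, 0.645% and 0.543%.

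Introns of ribosomal protein genes gave most of these reads, from 73.6% to 81.2% of intron reads in the 6 libraries. Their share of gene reads rose from 0.400% ± 0.0200 to 1.17% ± 0.149, 2.94-fold. The introns of all other hosts rose from 0.135% ± 0.00728 to 0.314% ± 0.00965, 2.33-fold. The spread at 8 h lay mostly in the ribosomal protein introns, which were highest in replicate 3. Without that library the total share rose 2.63-fold.

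**Figure D1:**
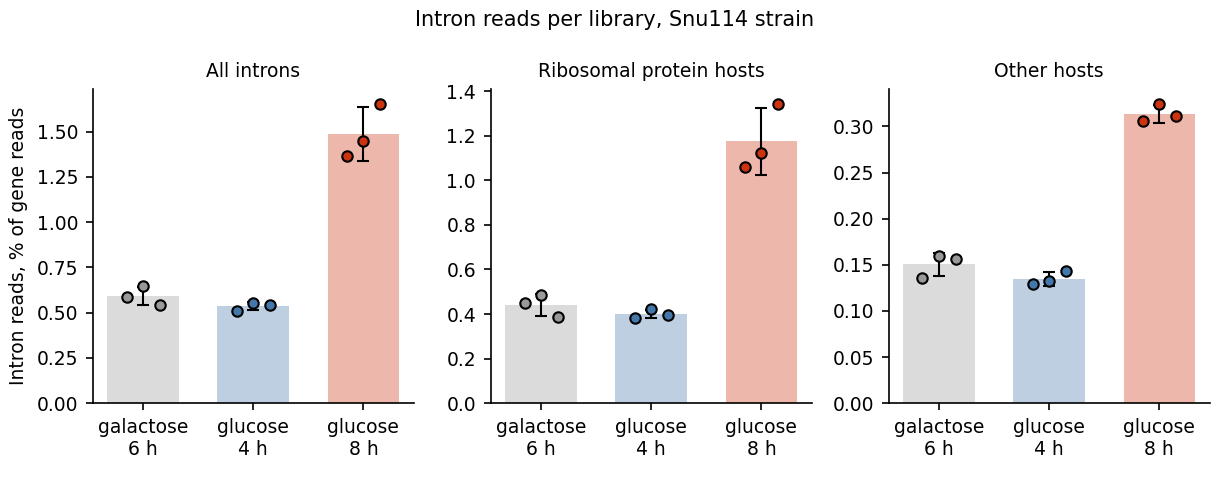
Intron reads as a percent of gene reads in each library of the Snu114 strain, for all introns, for ribosomal protein hosts and for other hosts; points are libraries, bars means and whiskers SD (n = 3). The 4 h libraries (0.510% to 0.554% for all introns) sit beside the galactose libraries, and the 8 h libraries (1.36% to 1.65%) above both.

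The rise was spread over nearly all introns. For each host the intron reads were set against the gene reads of the same library, which needs no scale between libraries. Only hosts averaging 5 or more intron reads and 20 or more gene reads were kept, which left 249. It rose for 219 of them (88% of hosts tested) and fell for 0, with a median change of 1.97 (log2), in limma at an adjusted p under 0.05. At an unadjusted p under 0.05 the number was 220, edgeR gave 221 rises and 0 falls, and DESeq2 220 rises and 0 falls. In 216 hosts (86.7%) every 8 h library lay above every 4 h library, and in 1 (0.402%) below. The median host went from 3.81 to 17.7 intron reads per 100 gene reads. Hosts with at least 10 intron reads per 100 gene reads increased from 64 to 175. The ratio cannot be read as a share of unspliced transcripts, because intron reads outnumbered gene reads in 5 to 7 hosts per library.

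Taken per base, so that genes can be compared, read density over the introns had a median of 11.5% of the density over coding sequence at 4 h and 45.8% at 8 h, among the 246 hosts found in R64. Ribosomal protein hosts went from a median of 4.92% to 23.6%, and other hosts from 19.5% to 73.4%. At 8 h the introns of 114 hosts, against 32 at 4 h, were over 50% of the coding density. Of these 114 hosts, 6 were ribosomal protein genes. The per-base density of ribosomal protein introns was thus the lower at both times, while their log2 change was the larger, with a median of 2.18 against 1.78 in other hosts. Without replicate 3 at 8 h those medians were 2.01 and 1.81.

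**Figure D2:**
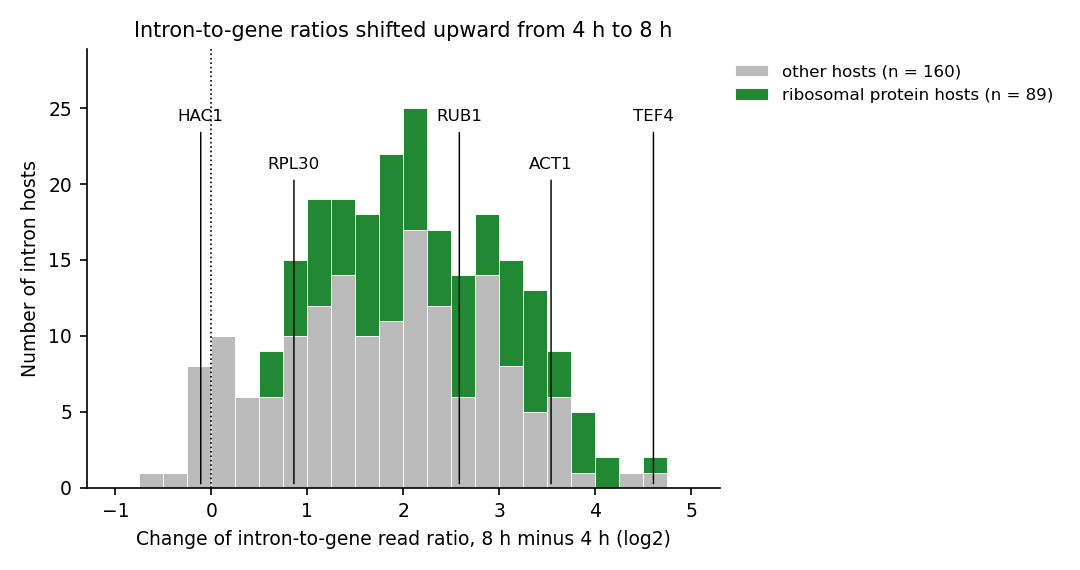
Histogram of the log2 change of the intron-to-gene read ratio, 8 h minus 4 h, for 249 hosts of the Snu114 strain; bar height is the number of hosts, green marks ribosomal protein hosts, the dotted line no change, and lines mark 5 named introns. Most hosts lie right of 0 around the median of 1.97, with HAC1 at -0.11, RPL30 at 0.86, and TEF4 at 4.61.

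The largest log2 changes were those of RPS4B, TEF4 and MAF1. TEF4, which encodes a subunit of translation elongation factor eEF1B, had 0.198, 0.210 and 0.152 intron reads per 100 gene reads at 4 h and 4.34, 5.14 and 4.18 at 8 h. All 3 libraries of each group were close together, and the log2 change was 4.61 ± 0.37 (standard error; limma, adjusted p = 1.4e-06). RPS4B, a protein of the small ribosomal subunit, went from 0.453, 0.359 and 0.586 to 8.65, 9.50 and 17.3 intron reads per 100 gene reads, a change of 4.62 ± 0.34 (adjusted p = 8.75e-07, limma). Its groups were far apart, with replicate 3 the highest at both times.

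MAF1, the repressor of RNA polymerase III, went from 0.638, 0.223 and 0.148 to 7.01, 7.604 and 4.89 intron reads per 100 gene reads, a log2 change of 4.39 ± 0.53 (limma, adjusted p = 1.75e-05). Its 4 h libraries were spread widely, with replicate 1 the highest, but none came near the 8 h libraries. ACT1, the actin gene and a classic splicing substrate, went from 0.660, 0.510 and 0.526 to 5.04, 5.49 and 10.1, a change of 3.54 ± 0.32 (adjusted p = 2.57e-06, limma). The other hosts among the 12 largest rises were RPL19B (4.21), RPS14A (4.02), RPS4A (4.00), RPL31A (3.98), SAC6 for the actin bundler fimbrin (3.97), RPL6A (3.85), RPL31B (3.83), CGI121 of the KEOPS complex that modifies tRNA (3.75) and NMD2 of nonsense-mediated decay (3.73). In each of these 9 the 8 h libraries lay above the 4 h libraries, as they did in 86.7% of all hosts tested. They were chosen for large rises, so this separation follows in part from the choice.

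RUB1, a ubiquitin-like modifier, gave the least scatter among the named introns that rose: 7.27, 7.42 and 7.40 intron reads per 100 gene reads at 4 h and 44.3, 44.6 and 43.8 at 8 h. The libraries within each group were nearly equal, replicate 3 at 8 h included, and the log2 change was 2.58 ± 0.13 (limma, adjusted p = 2.17e-07). SUS1, a subunit of the SAGA and TREX-2 complexes with an intron pair in its short gene, stood high already at 4 h, at 24.1, 30.2 and 24.3, and reached 65.4, 68.3 and 69.5. Its change of 1.38 ± 0.15 (adjusted p = 9.48e-06, limma) was smaller on the log2 scale, although the gain in reads was large. MUD1, a protein of the U1 snRNP, went from 3.99, 2.87 and 5.12 to 15.9, 17.4 and 24.8 (2.28 ± 0.24, adjusted p = 7.03e-06, limma).

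**Figure D3:**
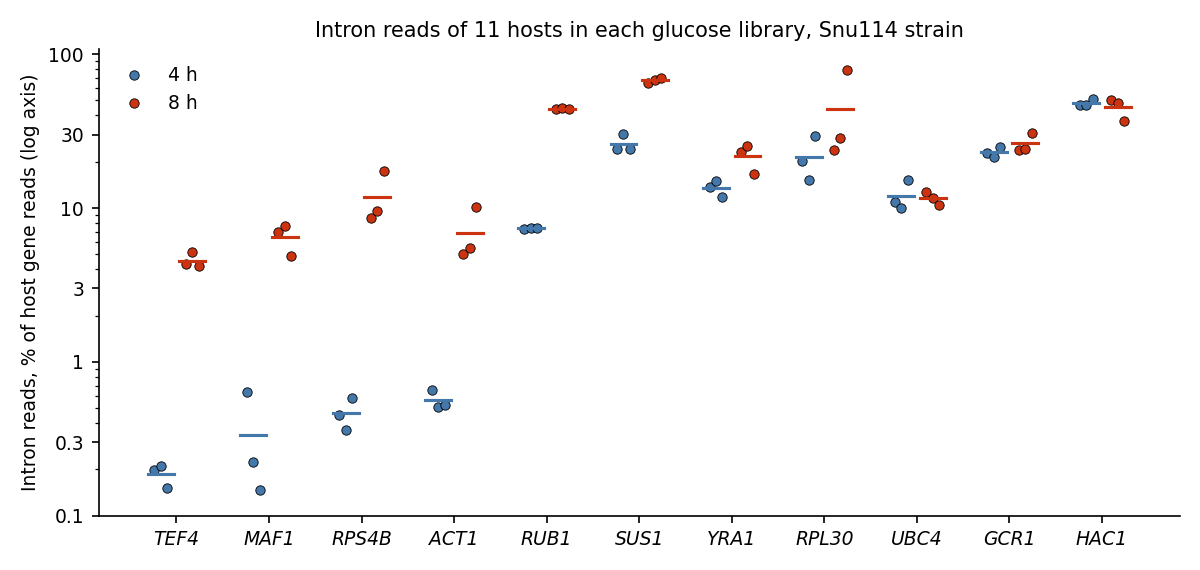
Intron reads as a percent of host gene reads (log axis) for 11 hosts in each 4 h (blue) and 8 h (red) library of the Snu114 strain; points are libraries and short lines means (n = 3). The rise broadly narrows from left to right: TEF4 goes from 0.187% to 4.55% on average and RUB1 from 7.36% to 44.2%, while UBC4, GCR1 and HAC1 overlap between the times.

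A small group of introns changed little although they were deeply read. They were picked for the smallest absolute changes among hosts above the median number of intron reads. HAC1, which encodes the transcription factor of the unfolded protein response, had 46.9, 47.0 and 51.4 intron reads per 100 gene reads at 4 h and 50.7, 48.3 and 36.6 at 8 h. The groups overlapped, and the log2 change was -0.11 ± 0.15 (limma, adjusted p = 0.512). UBC4, a ubiquitin-conjugating enzyme, had 10.97, 10.03 and 15.2 at 4 h and 12.7, 11.7 and 10.5 at 8 h, which overlapped too (-0.03 ± 0.26, adjusted p = 0.918, limma). GCR1, the activator of glycolytic genes, had 22.7, 21.6 and 25.1 at 4 h and 23.8, 24.3 and 30.7 at 8 h (0.18 ± 0.15, adjusted p = 0.29, limma). For MPT5, an RNA-binding Puf protein, and QCR9, a subunit of respiratory complex III, the changes were 0.27 ± 0.14 (adjusted p = 0.0993, limma) and 0.42 ± 0.19 (adjusted p = 0.0601, limma). YBR219C, picked in the same way, changed by -0.37 (adjusted p = 0.0999, limma). These misses of the threshold do not show that the introns stayed constant, and MPT5 passed it under 1 and QCR9 under 3 of 14 alternatives.

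Among single hosts known for regulated splicing the values differed widely. RPL22A and RPS9B, ribosomal protein genes whose introns are also known for regulation, rose by 2.37 and 2.26, above the median of 1.97. RPS9B was added here after its value was seen. RPL22A was among the introns fixed for naming, a choice made with earlier results of these data known. YRA1, an mRNA export adaptor whose intron takes part in its autoregulation, went from 13.7, 14.99 and 11.8 to 23.2, 25.3 and 16.6 intron reads per 100 gene reads (0.67 ± 0.21, limma, adjusted p = 0.0114). Its 8 h libraries all lay above the 4 h libraries, by the least in replicate 3. DBP2, an RNA helicase that also regulates itself through its intron, went from 2.68, 2.44 and 3.93 to 4.41, 4.99 and 13.0 (1.16 ± 0.39, adjusted p = 0.0159, limma). Its change was 0.67 without replicate 3 at 8 h, and its call was lost without replicate 1 or 2 at 4 h. RPL30 had 20.2, 15.2 and 29.3 at 4 h and 24.0, 28.5 and 78.7 at 8 h, so that its groups overlapped and 1 library set its mean. It was the only one of 89 ribosomal protein hosts whose ratio did not pass (0.86 ± 0.46, adjusted p = 0.1, limma). Under 3 of 14 alternatives RPL30 passed as well.

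The tubulin introns moved little beside that of actin. TUB1, the main alpha-tubulin, went from 0.809, 0.724 and 0.897 to 1.39, 1.72 and 1.06 intron reads per 100 gene reads (0.76 ± 0.32, limma, adjusted p = 0.0427). TUB3, the minor alpha-tubulin, went from 3.75, 3.27 and 4.99 to 7.56, 7.21 and 6.09 (0.81 ± 0.21, adjusted p = 0.00392, limma). The 8 h libraries were above the 4 h libraries for both genes. TUB1 lost its call under 6 of 14 alternatives.

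Described by host function and read against the background of 88%, the ratio rose for 16 of 16 secretory pathway hosts tested (median 2.65), among them YOP1 (3.41) and SAR1 (3.26), which shape and bud membranes of the endoplasmic reticulum. It rose for 13 of 13 RNA processing and export hosts (median 2.28), such as RPO26, a subunit shared by the RNA polymerases (3.66), and the nucleoporin gene NSP1 (3.57). It rose for 8 of 8 hosts of intronic snoRNAs (2.02), 7 of 7 hosts with 2 introns (2.28), 14 of 16 cytoskeleton hosts (1.56), 8 of 9 ubiquitin and Rub1 hosts (1.34) and 5 of 7 mitochondrial and respiratory hosts (1.72). These shares lay near the background. Without replicate 3 at 8 h the ratio rose for 16 of 16 cytoskeleton hosts and 7 of 7 mitochondrial and respiratory hosts. For ubiquitin and Rub1 hosts that setting gave 7 of 9. The meiotic hosts passed for 1 of 6 (HOP2, a factor of meiotic recombination, 1.24), with a median of 0.09. Without replicate 3 at 8 h that count was 2 of 6 with 1 fall, and the median 0.85. Of those that did not pass, MND1, AMA1, REC102 and REC114 had means of 4.33 to 18.8 intron reads. REC107 had a mean of 201 and changed by 0.05 (adjusted p = 0.802, limma).

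Of the 30 hosts that did not pass, 22 had fewer intron reads than the median host. Among the 237 hosts with 1 annotated intron, the median change was 2.08 for the 179 that began with GTATGT and 1.70 for the 58 that did not. It was 2.07 for the 199 with TACTAAC and 1.47 for the 38 without. In hosts other than ribosomal protein genes the same contrasts were 2.02 against 1.19 and 2.02 against 1.27, and in ribosomal protein hosts 2.19 against 2.07 and 2.18 against 2.13. The number of ribosomal protein introns without TACTAAC was 4, too few to read a median from.

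The change was smaller where the intron-to-gene ratio was already higher in galactose, in libraries that belong to neither group. Hosts under 1 intron read per 100 gene reads there had a median change of 3.07 (n = 20), those at 1 to 3 one of 2.35 (n = 54), those at 3 to 10 one of 2.06 (n = 94) and those over 10 one of 1.09 (n = 69). By intron length the medians were 1.89 under 150 bases (n = 119), 2.50 at 150 to 350 (n = 36) and 1.97 over 350 (n = 82). In hosts other than ribosomal protein genes they were 1.88 (n = 118), 1.44 (n = 19) and 0.67 (n = 13) in the same order, and in ribosomal protein hosts 3.10 at 150 to 350 (n = 17) and 2.10 over 350 (n = 69). Length and host class go together, since 118 of the 119 short introns lay outside ribosomal protein genes. These classes are descriptions and were not tested.

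The rise was also seen in the intron levels themselves, placed on the scale of the gene table. Of 253 hosts, 197 rose (77.9%) and 3 fell (1.19%), 79.1% in all, with a median of 1.53 (log2, limma, adjusted p under 0.05). The 3 falls were MND1, a meiotic gene, and the little-studied YJR079W and YBR219C. Against this, host gene levels tended downward: in 183 of the 249 hosts the intron level was higher and the gene level lower at 8 h, in 51 both were higher, and in 15 both were lower. The number with a lower intron level and a higher gene level was 0. With the intron table's own size factors the split was 74 rises and 63 falls with a median of -0.02, since those factors centre the introns on each other. The authors' deposited table of intron comparisons, scaled in that way, lists 76 introns higher and 69 lower at 8 h.

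Gene levels changed far less than introns. Of 6447 genes with a read in the strain, 80 rose (1.24% of genes tested) and 43 fell (0.667%) from 4 h to 8 h in limma at an adjusted p under 0.05, 1.91% in all, while 947 had an unadjusted p under 0.05. The groups did not overlap in 661 genes with 8 h above (10.3%) and 627 with 8 h below (9.73%). The median change was 0.00. The number of calls depended on single libraries: it was 5, 11 and 141 without replicates 1, 2 and 3 at 4 h, and 31, 6 and 111 without replicates 1, 2 and 3 at 8 h. With the 6 libraries alone in the fit it was 4. The edgeR test on the recovered reads called 82 rises and 40 falls, DESeq2 called 245 and 191, and the authors' deposited table lists 237 and 188. FIT2, FIT3, PMI40 and YBR255C-A, singled out for this after their values were seen, passed under the main test and all 15 alternatives, so other single genes are to be read by their values.

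Many of the genes that fell were intron hosts. In limma 30 of the 43 falls were hosts, against 4.23% of genes tested, and in DESeq2 78 of 191. The intron ratio rose in 27 of the 30, near the 88% of all hosts tested. Since the cultures were sequenced in bulk, fewer cells with a transcript and less of it per cell cannot be told apart. Of the 80 that rose 2 were hosts, the ribosomal protein gene RPS9A (0.68) and SRC1, an inner nuclear membrane protein (0.85). The median change was -0.36 over 273 hosts and 0.01 over 6174 genes without an intron. Without replicate 3 at 8 h 30 of 45 falls were hosts, and the hosts' median was -0.29.

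**Figure D4:**
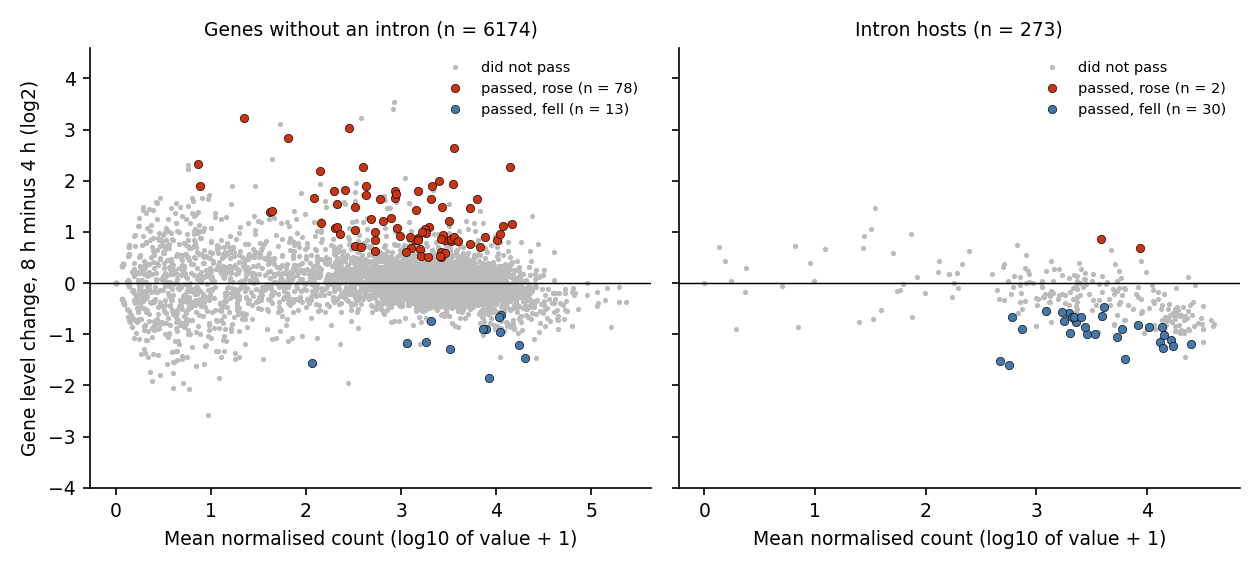
Log2 change of gene level, 8 h minus 4 h, against mean normalised count (log10 of value + 1) for 6174 genes without an intron (left) and 273 intron hosts (right) of the Snu114 strain; red and blue mark genes that passed upward and downward in limma, grey the others. Genes without an intron spread about 0 with 78 rises and 13 falls, while hosts lie mostly below 0 with 30 falls and 2 rises.

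Among ribosomal protein genes with an intron, 11 of 89 fell and 1 rose, against 0.667% and 1.24% of all genes, with a median of -0.72. Among those without an intron 3 of 49 fell, with a median of -0.57. DESeq2 called 45 of 89 and 11 of 49 lower, against 191 of the 6197 genes it tested. By these medians, genes with and without an intron were both lower. RPS22B, a host, went from normalised counts of 8758, 10253 and 9118 to 3916, 3689 and 2593 (-1.48 ± 0.17, limma, adjusted p = 0.00716), and the groups were well apart. RPL8A and RPS26B, which have no intron, went from 12434, 15484 and 10979.6 to 4831, 4215 and 2213 (-1.85 ± 0.28, adjusted p = 0.0174, limma), and from 30959, 34788 and 22561 to 12604, 11600.5 and 7973 (-1.46 ± 0.23, adjusted p = 0.0176, limma). These genes have near-identical copies, and reads that fit both copies could be assigned either way or dropped, so single copies are uncertain.

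Replicate 3 was the lowest of its group at 8 h in 78 of the 89 ribosomal protein hosts and in 46 of the 49 genes without an intron. Without it the medians were -0.51 and -0.29, and 8 of 89 and 3 of 49 fell. At 4 h replicate 3 was the lowest in 76 of the 89 and in 44 of the 49. Falls among the 89 hosts numbered 0 to 15 and among the 49 genes 0 to 5 when each library was left out in turn. The proteins with a single intron-bearing copy were RPS22 and RPP1. RPS22B changed by -1.48 and its intronless copy RPS22A by -0.57, and RPP1B by -0.84 and RPP1A by -0.47. RPS22B alone of these 4 passed the test.

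Other hosts fell in 19 of 184 cases and rose in 1, against 0.667% and 1.24% of all genes, and had a median of -0.16. PMI40, the mannose-6-phosphate isomerase of protein glycosylation, had 7196, 7101 and 7453 normalised counts at 4 h and 3472, 3425 and 3528 at 8 h. The libraries of each group nearly coincided, replicate 3 included (-1.06 ± 0.10, limma, adjusted p = 0.00186). YBR255C-A, a small host gene, went from 665, 757 and 679 to 251, 255 and 221 (-1.53 ± 0.14, adjusted p = 0.00217, limma), and CIN2, a tubulin-folding factor, from 764, 781 and 1022 to 243, 248 and 357 (-1.60 ± 0.23, adjusted p = 0.0132, limma). The ratio of YBR255C-A rose by 1.54 ± 0.20 (adjusted p = 2.7e-05, limma), whereas those of PMI40 (0.68 ± 0.45, adjusted p = 0.177, limma) and CIN2 (0.15 ± 0.81, adjusted p = 0.883, limma) did not pass. PFY1 for the actin-binding profilin (-0.82), GIM5 of prefoldin (-0.56) and SEC14, a phospholipid transfer protein (-0.47), fell as well.

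Outside the hosts, rises were found in the iron regulon, the genes that Aft1 turns on when iron runs short. Of 25 tested, 8 rose and 0 fell, against 1.24% of all genes, with a median of 0.42. FIT2 and FIT3, cell wall mannoproteins that help to hold iron carriers, led by count. FIT2 had 1243, 846 and 874 normalised counts at 4 h and 5028, 6516 and 6945 at 8 h (2.65 ± 0.22, limma, adjusted p = 0.00129). FIT3 had 1517, 1293 and 1504 and then 4669, 6062 and 5853 (1.94 ± 0.15, adjusted p = 0.00129, limma). For both genes the lowest 8 h value was more than double the highest 4 h value.

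LSO1, a small protein induced by iron shortage, was barely read, at 3.65, 3.91 and 2.14 normalised counts at 4 h, and reached 25.7, 41.4 and 50.4 (3.22 ± 0.33, limma, adjusted p = 0.00372). The other 5, named after their values were seen, were TIS11, whose protein triggers decay of mRNAs for iron-using enzymes (1.66), the siderophore transporters SIT1 (1.43) and ARN1 (1.08), the reductase FRE5 (1.09) and the copper pump CCC2 (0.88). All 8 rose without overlap between the groups, which follows in part from their passing the test. Over the whole list, every 8 h library lay above every 4 h library in 15 of 25, against 10.3% of all genes. Others did not pass: FET3, the oxidase of the high-affinity iron uptake system, changed by 0.47 ± 0.19 (adjusted p = 0.281, limma), and FIT1 by 0.13 ± 0.13 (adjusted p = 0.739, limma). The count was 3, 3 and 5 of 25 without replicates 1, 2 and 3 at 4 h, and 4, 3 and 6 without replicates 1, 2 and 3 at 8 h.

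**Figure D5:**
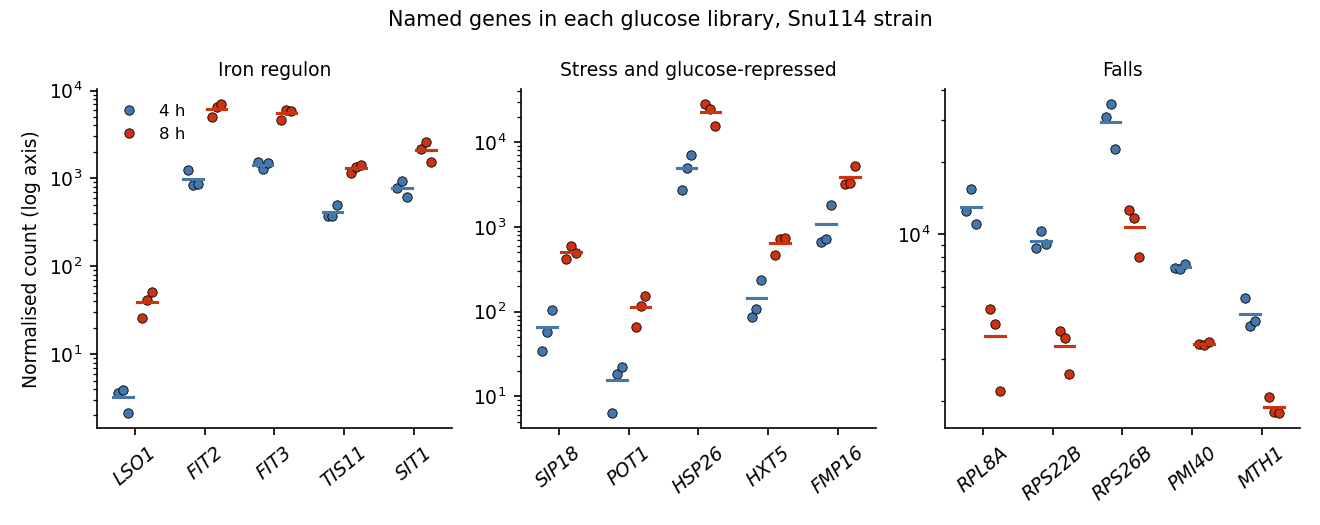
Normalised counts (log axis) of 15 genes in each 4 h (blue) and 8 h (red) library of the Snu114 strain, in 3 panels with axes of their own; points are libraries and short lines means (n = 3). All 15 genes had passed the test, and the largest rises and falls were named only where the groups did not overlap. The separation seen, from LSO1 (2.14 to 3.91 against 25.7 to 50.4) to PMI40 (7101 to 7453 against 3425 to 3528), thus follows from the choice of genes.

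Genes of the general stress response rose in 8 of 33 cases, against 1.24% of all genes, with 0 falls and a median of 0.79. SIP18, a hydrophilin of desiccation tolerance, went from 34.7, 57.4 and 105 to 415, 595 and 495 normalised counts (3.04 ± 0.45, limma, adjusted p = 0.0148). FMP16 went from 657, 729 and 1834 to 3182, 3324 and 5245 (1.99 ± 0.35, adjusted p = 0.0259, limma) and ALD3, an aldehyde dehydrogenase, from 425, 521 and 1176 to 3025, 1617 and 2253 (1.798 ± 0.36, adjusted p = 0.0376, limma). Within the 4 h group these genes followed the library: replicate 3 was the highest in 28 of the 33 and replicate 1 the lowest in 32. Their summed normalised count was 112322, 157741 and 216346 at 4 h and 269400.0, 251990.0 and 239017 at 8 h, so the groups did not overlap. The count of rises was 0, 0 and 12 without replicates 1, 2 and 3 at 4 h, and 1, 0 and 6 without replicates 1, 2 and 3 at 8 h.

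Genes that glucose keeps repressed showed a similar picture, with 5 of 28 risen against 1.24% of all genes, 0 fallen and a median of 0.59. POT1, the peroxisomal thiolase of fatty acid oxidation, went from 6.39, 18.2 and 22.5 to 66.7, 116 and 155 normalised counts (2.84 ± 0.53, limma, adjusted p = 0.028). CAT2 and CRC1, which move acetyl groups as carnitine esters, rose by 1.64 ± 0.23 and 1.54 ± 0.33 (adjusted p = 0.0132 and 0.0486, limma). ALD4 (1.12) and the activator gene ADR1 (0.66), named after their values were seen, were the others. Without replicates 1, 2 and 3 at 4 h the count was 0, 0 and 3, and without those at 8 h 2, 0 and 3. Glucose in the medium was not measured, and its part in these rises was not tested.

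The hexose transporter HXT5, known for expression in slowly growing cells, went from 86.7, 108 and 236 to 472, 727 and 736 (2.27 ± 0.47, limma, adjusted p = 0.0456). Among 20 genes listed for glucose uptake and sensing it was the 1 that rose, against 1.24% of all genes, and 0 fell. That list had a median of -0.30, with 13 of 20 changes negative. In it 0 of 20 rose when any library other than replicate 3 at 4 h was left out. MTH1, a corepressor of glucose transporter genes, fell from 5384, 4102 and 4332 to 2086, 1802 and 1785 (-1.28 ± 0.17, adjusted p = 0.0123, limma). It was listed among 11 genes of the GAL regulon, not among those 20. Among 29 heat shock genes and chaperones 2 rose, against 1.24% of all genes: HSP26 for a small heat shock protein and SSA4 for an inducible Hsp70. HSP26 went from 2718, 4996 and 7124 to 27916, 24812 and 15659.5 normalised counts (2.27 ± 0.42, adjusted p = 0.028, limma). SSA4 rose by 1.64 ± 0.29 (adjusted p = 0.0273, limma), and the list had a median of 0.14 and 0 to 3 rises when single libraries were left out. HIS1 (-0.95) and HIS4 (-0.90) of histidine synthesis were the only 2 of 39 Gcn4-regulated genes to pass, against falls in 0.667% of all genes. With replicate 3 at 8 h left out, 1 of 39 did so. The list leaned downward beyond these genes, with a median of -0.32 and 35 of 39 changes negative. In 18 of 39 every 8 h library lay below every 4 h library, against 9.73% of all genes.

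Of 15 genes for U5 and tri-snRNP proteins, PRP8 alone passed, against rises in 1.24% of all genes. It had 3361, 2510.5 and 2776 normalised counts at 4 h and 4984, 4380.2 and 5927 at 8 h (0.82 ± 0.16, limma, adjusted p = 0.0354). BRR2 changed by 0.47 ± 0.11 (adjusted p = 0.0652, limma), with 8 h libraries all above the 4 h libraries, and the list had a median of 0.18. PRP8 and BRR2 are long genes, and genes over 4000 bases had a median change of 0.19 (n = 187), against medians of -0.01 to 0.02 in the 4 shorter classes. With the trend on gene length removed the change of PRP8 was 0.53 (adjusted p = 0.0459, limma), and its call was lost when any of the 6 libraries was left out.

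The Snu114 changes were set against those of the strain in which the GAL1 promoter drives DIB1, a gene of another tri-snRNP protein, over the same times in glucose. The strains also differ in genotype and in mating-type transcripts. Such differences cannot be told apart here from which gene was shut off. Intron reads there were already 1.97%, 1.60% and 1.74% of gene reads at 4 h and 2.62%, 2.53% and 2.57% at 8 h. The median change of the intron ratio from 4 h to 8 h was 1.97 in the Snu114 strain and 0.87 in the Dib1 strain over the 249 hosts. Tested as a difference between the changes in all 18 libraries, the ratio rose more in the Snu114 strain for 144 of 250 hosts (57.6%) and less for 1 (0.4%, HMRA1, not among the 249 hosts with enough reads in the Snu114 strain), 58% in all, by limma at an adjusted p under 0.05. The gap was of like size in ribosomal protein hosts (median difference 1.099) and other hosts (1.01). For genes the same test gave 11 of 6418 higher (0.171%) and 29 lower (0.452%), 0.623% in all. The gene count was 3, 0 and 74 without replicate 1, 2 and 3 of every group. FIT2 changed by 2.65 in the Snu114 and 2.83 in the Dib1 strain, and PMI40 by -1.06 and -1.05. For neither gene did the difference pass (-0.18, adjusted p = 0.881, and -0.02, adjusted p = 0.96, limma). PRP8 changed by 0.82 in the Snu114 and 1.29 in the Dib1 strain, and BRR2 by 0.47 and 0.85. Their differences did not pass either (-0.47, adjusted p = 0.489, and -0.39, adjusted p = 0.275, limma).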

How the data were processed

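Poly(A)-selected, strand-specific RNA was sequenced in pairs of reads, per the labels' protocols. Trimmomatic, STAR, HTSeq, DESeq2 and the sacCer3 build are named in the submitters' processing notes, and their versions are not given in the sources used here. The authors deposited, for genes and for introns, a normalised signal per library (read count divided by a size factor), and comparisons as log2 fold changes with adjusted p-values. Dividing a library's values by its smallest step gave whole reads within 0.001 for 100% of values, and these reads were used as counts. The sequences and coordinates are those of RefSeq R64, the assembly of sacCer3, in which 281 of 284 hosts were found. Where the annotation of introns differs from the authors', lengths and motifs may not describe the region they counted.

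Genes were tested with limma 3.58.1 (R 4.3.3) on log2 of the normalised value plus 1, intron levels on the gene table's scale likewise, and intron-to-gene ratios on log2 with 0.5 added to both reads. The fit held the strain's 9 libraries, or all 18 for the strain difference. Called means a Benjamini-Hochberg adjusted p under 0.05. Errors of log2 changes are standard errors. On the recovered counts edgeR 4.0.16 called 122 genes and DESeq2 1.42.0 called 436. The tests were tried on simulated data with known changes and with noise drawn independently for each gene. Shifts shared by the genes of a library were not simulated, so the trial does not speak to them. The named genes were SNU114, the strain markers, the 12 largest rises and falls above a mean of 10 CPM without overlap of the groups, and up to 3 genes each way of each list past the threshold (or 2 where none passed). The named introns were the 12 largest rises of the ratio past the threshold, with no CPM or overlap filter, and up to 3 of each intron list. Hosts with the smallest absolute changes among those above the median intron reads, and a fixed set of introns, were added. The members and lists were chosen with earlier results of these data known. Lists are described by counts and medians and were not tested as sets.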

Additional observations from a re-analysis of the deposited data

Results flagged for a closer look

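The change from 4 h to 8 h differed between the strains, by limma's test of the difference at an adjusted p under 0.05, for the intron ratio of 145 hosts, of which 144 changed more in the Snu114 strain and 1, HMRA1, changed less. HMRA1 was below the minimum of reads in the Snu114 strain and was tested only through its reads in the Dib1 strain, so nothing is read from it. For some of the introns named above that passed this test, the difference (Snu114 minus Dib1, log2) was 3.24 for MAF1, 3.07 for RPS4B, 3.03 for TEF4, 2.34 for RPL19B, 2.20 for ACT1, 1.86 for RUB1 and 1.13 for SUS1. The corresponding changes in the Dib1 strain were 1.15, 1.55, 1.57, 1.88, 1.34, 0.72 and 0.25. MAF1, RPS4B, TEF4 and RPL19B had been named for their large change in the Snu114 strain. That change is part of the difference, so large differences follow in part from the choice. Other named introns are not listed here.

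For genes the change was higher in the Snu114 strain for 11 and lower for 29. The 1,3-beta-glucan synthase gene GSC2 rose by 0.82 there and by 2.65 in the Dib1 strain, a difference of -1.83 (adjusted p = 9.86e-05, limma). YRA1 changed by -0.13 and 1.12, a difference of -1.26 (adjusted p = 0.00613, limma). GSC2 and YRA1 were singled out after their values were seen. Differences in genotype and mating-type transcripts between the strains go with all these values.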

How the results depend on the processing

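The counts of introns that rose held best. Leaving out each library in turn gave 208 to 228 calls for the ratio, 184 to 208 for the level (74 rises and 63 falls with the intron table's own size factors) and a share difference of 0.871 to 1.02 percentage points, against 219, 200 and 0.953. The share difference was 0.179 without ribosomal protein introns, 0.775 with these alone, and 14.8 as a percent of host gene reads. For genes, 123 calls became 436 with DESeq2, 4 with the 6 libraries alone and 5 to 141 with a library left out; with the trend on gene length removed it split into 81 rises and 66 falls, against 80 and 43. Genes that differed between strains numbered 40, and 0 to 74 without replicate 1, 2 or 3 of every group: the 0, without replicate 2, is from limma, with 472 genes at an unadjusted p under 0.05, and edgeR on all libraries gave 40. Introns that differed between strains numbered 99 to 141 in the same way, against 145. The cause of these moves was not tested; the fits with fewer libraries also have fewer degrees of freedom.

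Same-numbered replicates deviated together with correlations of -0.09, 0.71 and 0.32 in pairs 1, 2 and 3, and replicates 2 and 3, but not 1, correlated best with their own number, which is a hint from the data; the samples share only a number. A replicate block gave 385 gene calls (89 of 180 falls in hosts, 64 in ribosomal protein genes), 224 ratio calls and 205 level calls, and, within strain, 236 genes and 162 introns for the strain difference. Of 48 named genes, 5 kept their side of the threshold under every alternative tried, and of 45 named introns 39; none changed direction while past the threshold. The list counts without replicate 3 at 8 h were chosen after seeing the data. Introns with few reads are limited by depth.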
